A study of Mus musculus with 12 samples.

Results

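Unrestricted growth of fetal mouse lungs over 2 days of culture was followed by comparing the 4 Day 2 control libraries with the 4 Day 0 libraries, which are 8 of the 12 RNA-seq libraries of the series. Members were chosen by their labels alone, and all genes of the count table entered the comparison. All lungs came from wild-type CD-1 fetuses, were taken at embryonic day 12.5 (E12.5) and spent a day in a drop of Matrigel, a basement membrane gel, on a porous insert with air above and medium below. Day 0 lungs are those at the end of that day. Day 2 control lungs were then kept for 2 more days in Matrigel to which the light-sensitive polymer PEG-HCC had been added at 20% and left uncrosslinked. The remaining 4 libraries are lungs of the same day whose polymer was crosslinked around them (Day 2 compression). No lungs were cultured without the polymer, so the passage of time, the culture itself and the uncrosslinked polymer cannot be told apart. An explant is cut off from the circulation, from breathing movements and from the rest of the fetus, which limits it as a model of the lung in the womb.

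At this age the mouse lung branches. Epithelial tips express Sox9 and Id2, divide and leave behind airway stalks that express Sox2, in answer to growth factors such as Fgf10 from the mesenchyme around them. Airway stalks later form multiciliated cells, which beat mucus along the airway, and club cells, which secrete protective proteins, while distal cells form alveolar type 1 cells, the thin cells of gas exchange, and alveolar type 2 cells, which make surfactant. Blood vessels grow into the mesenchyme under the influence of VEGF, which distal epithelium secretes, and in the fetus they carry nucleated red cells.

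Both groups carried the marks of fetal lung. The lung and thyroid factor Nkx2-1 averaged 169 CPM at Day 0 and 241 CPM at Day 2, where CPM are read counts scaled to library sizes corrected by TMM. The lung mesenchyme factor Tbx4 lay between 199 and 224 CPM at Day 0 and between 172 and 223 CPM at Day 2. Total counts ran from 13979871 to 33249761 at Day 0 and from 15452117 to 30805341 at Day 2, and a total of 3 counts over a group of 4, the limit set by a count of 0, corresponds to 0.0324 CPM at Day 0 and 0.0285 CPM at Day 2. The first principal component of the 8 libraries held 61.3% of the variance, with Day 0 libraries at -36 or below and Day 2 libraries at 32.77 or above. Control replicate 4 stood apart on the second component (11.4% of the variance, score -34.65) and held liver transcripts, described with the blood and liver lists. Control replicates 2 and 3 expressed Xist, the RNA of the inactive X chromosome (2414 and 2237 CPM), whereas the other 6 libraries, all of Day 0 included, had Y-linked reads. Whether the replicates came from separate fetuses is not said in the labels. P-values therefore measure the spread between these samples, which may be in part technical.

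Over 15246 genes tested, 6131 (40.2%) passed an adjusted p of 0.05 in edgeR's quasi-likelihood test, 3441 (22.6%) with higher and 2690 (17.6%) with lower values at Day 2. These passing genes are referred to as called, and log2 fold changes (log2 FC) are Day 2 control minus Day 0. A change of at least 2-fold was seen for 1415 called genes (9.28%), of which 1034 rose (6.78%) and 381 fell (2.5%). Groups did not overlap for 5771 genes (37.9%), with 3116 higher (20.4%) and 2655 lower (17.4%). The typical call was small, with quartiles of the absolute log2 FC at 0.32, 0.51 and 0.94, and the median log2 FC of all tested genes was 0.02. Gene lists are described below by their counts in each direction and their median, to be read against these figures. In bulk RNA, a change in the number of cells of a type cannot be told apart from a change in RNA per cell.

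**Figure D1:**
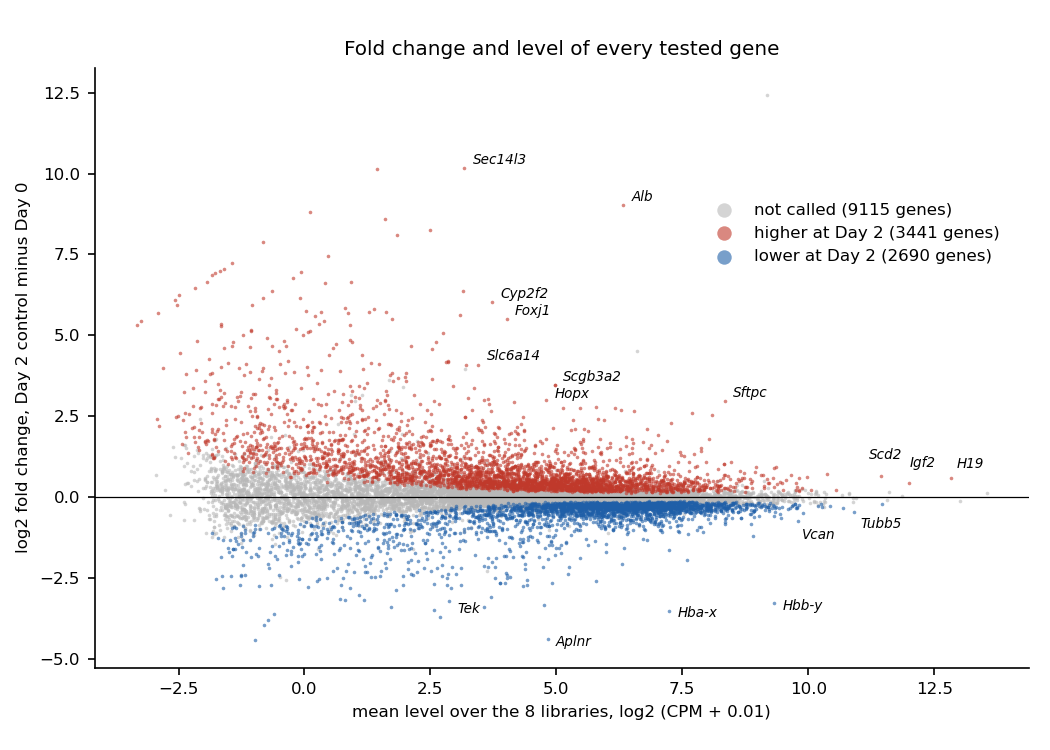
Log2 fold change (Day 2 control minus Day 0, vertical axis) against mean level over the 8 libraries (log2 of CPM plus 0.01, horizontal axis) for each of the 15246 tested genes. Red points are the 3441 genes called higher, blue points the 2690 called lower and grey points the rest; large rises are mostly of genes with low levels, and the globins Hbb-y and Hba-x stand out among the falls at higher levels.

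Genes of motile cilia had the highest median of the 54 lists. Multiciliated cells are set up by a regulatory cascade (Gmnc, Mcidas, Foxn4, Trp73, Foxj1) and by RFX factors, which bind the X-box in promoters of cilium genes. Of 42 tested genes of the axoneme and its assembly, 41 rose and none fell, with a median log2 FC of 3.28. Among 15 regulators, 10 rose and 1, E2f4, fell (median 2.05). Promoters are shown here because these genes moved together. The letters GTTGCCNNG, part of the X-box, occurred on either strand in the promoters (250 bases before to 50 after the start) of 18 of 49 genes of both lists that matched the RefSeq table (36.7%), and in 31.7% of their 60 promoters, against 5.0% of 32851 promoters of all genes and 5.58% of those of tested genes. A match describes the letters only. Stretches upstream of the start of 6 called genes, from the RefSeq annotation of GRCm38.p6, are written 5′ to 3′ on the strand of the gene with the match, or its reverse complement, in capitals.
Mcidas: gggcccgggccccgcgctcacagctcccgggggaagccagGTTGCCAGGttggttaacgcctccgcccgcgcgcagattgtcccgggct
Ccno: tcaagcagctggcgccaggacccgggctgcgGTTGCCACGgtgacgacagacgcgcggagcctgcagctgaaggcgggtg
Dynlrb2: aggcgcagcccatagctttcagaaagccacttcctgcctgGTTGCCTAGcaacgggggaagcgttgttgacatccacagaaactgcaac
Pifo: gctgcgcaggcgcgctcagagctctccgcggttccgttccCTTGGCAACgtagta
Enkur: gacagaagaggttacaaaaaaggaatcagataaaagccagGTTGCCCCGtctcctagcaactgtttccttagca
Drc1: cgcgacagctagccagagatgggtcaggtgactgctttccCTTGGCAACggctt
The Mcidas stretch lies at chr13:112993633-112993721 (plus strand) and the last base of the match lies 187 bases upstream of the gene's start. Ccno, its neighbour in the multiciliogenesis locus, has its stretch at chr13:112987552-112987631 (plus), with the match ending 211 bases upstream. The stretches of Dynlrb2 (chr8:116504924-116505012, plus), Pifo (chr3:106001498-106001552, minus), Enkur (chr2:21205366-21205439, minus) and Drc1 (chr5:30281339-30281392, plus) have matches that end 43, 7, 26 and 6 bases upstream.

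Foxj1, the master factor of motile cilia (chr11:116330704-116335399, minus strand), stood at 0.428, 0.498, 0.734 and 0.958 CPM in Day 0 replicates 1 to 4 and at 41.8, 12.8, 38.1 and 34.1 CPM in Day 2 control replicates 1 to 4 (log2 FC 5.50, SE 0.41, adjusted p = 1.5e-06). Here and below, values of a group follow that order of replicates. Mcidas, a coiled-coil protein that starts centriole amplification, stood at 0.299, 0.783, 0.642 and 1.53 CPM at Day 0 and at 15.3, 5.25, 11.2 and 11.2 CPM at Day 2 (3.64, SE 0.40, adjusted p = 1.9e-05). Control replicate 2 was the lowest and control replicate 1 the highest Day 2 library for both genes, and the groups did not overlap. The same 2 libraries were the extremes for Trp73, the p53 family member that acts above Foxj1, at 0.0712 to 0.183 CPM at Day 0 and 2.37 to 8.66 CPM at Day 2 (5.74, SE 0.47, adjusted p = 1.5e-06). Ccdc67, which encodes the deuterosome scaffold from which centrioles are copied in bulk, rose from 0.128, 0.214, 0.229 and 0.24 CPM to 29.3, 5.66, 18.9 and 15.8 CPM (6.38, SE 0.61, adjusted p = 9.1e-06). Cell cycle factors of this program differed. Myb rose from a mean of 7.06 ± 0.453 CPM at Day 0 to 28.9 ± 11.6 CPM at Day 2 (SD, n = 4) and Ccno from 5.32 to 17.6 CPM, whereas E2f4 fell (65.8 and 52.0 CPM) and E2f5 was not called (24.5 and 21.2 CPM). Foxn4, a forkhead factor of multiciliated cells, had no count at Day 0 and 563 counts at Day 2, at least 165.1-fold more against a floor of 3 counts over the group. Rfx2 (9.54 and 10.9 CPM) and Rfx3 (59.3 and 56.5 CPM), which serve many ciliated tissues, were not called.

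Structural genes of the axoneme that rose included dynein arm, radial spoke and doublet microtubule genes. Among dynein arms, the outer arm heavy chain Dnah5 stood at 0.0428, 0, 0.0917 and 0.03 CPM at Day 0 and at 2.99, 0.377, 2.38 and 1.15 CPM at Day 2 (log2 FC 5.19, SE 1.06, adjusted p = 0.0015). Control replicate 2 was again the lowest of its group and still exceeded every Day 0 value. The radial spoke gene Rsph1 stood at 0.385, 0.569, 0.504 and 0.419 CPM and then at 13.8, 2.81, 14.2 and 13.5 CPM (4.58, SE 0.60, adjusted p = 9e-05). Tekt4, a filament protein of the doublet microtubules, had 1 count in all at Day 0 (0.0428 CPM in replicate 1) and 0.961 to 3.99 CPM at Day 2, a ratio of 259.5 with a 95% counting interval from 46.21 to 10280. The assembly factors Zmynd10 (0.561 and 6.19 CPM), Dnaaf1 (0.0988 and 1.61 CPM) and Ccdc40 (2.14 and 9.02 CPM) rose as well. Tppp3, a tubulin-binding protein that other cells also express, was present at 10.2 to 12 CPM at Day 0 and rose to 29.4 to 33.8 CPM, with log2 FC 1.50 (SE 0.09). Tekt1 was the tested member that was not called (7.19 and 9.23 CPM). Without single libraries the count of axoneme genes called higher lay between 33 and 43.

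Club cell genes rose in 13 of 16 tested members, none fell, and the median log2 FC was 2.29. Cyp2f2, a cytochrome P450 of club cells (chr7:27119909-27133660, plus), stood at 0, 0.0712, 0.275 and 0.928 CPM at Day 0 and at 33.9, 24.7, 28.8 and 16.5 CPM at Day 2 (log2 FC 6.02, SE 0.54, adjusted p = 7.8e-06). Scgb3a2, the secretoglobin that appears first in the fetal airway, stood at 1.28, 2.42, 4.17 and 11.6 CPM and then at 103, 23.8, 66.3 and 37.2 CPM (3.46, SE 0.65, adjusted p = 0.002). Replicate 4 was the highest Day 0 library for both genes and still lay below every Day 2 value. Lypd2 rose from 0.385 to 2.1 CPM to 7.66 to 9.64 CPM (2.88, SE 0.34), Gsta3, a glutathione transferase, from a mean of 0.601 to 4.71 CPM, and haptoglobin (Hp) from 0.551 to 7.38 CPM. The mature club cell secretoglobin Scgb1a1 was at most 0.128 CPM in any of the 8 libraries and was not tested. Slc6a14, an amino acid transporter of airway epithelium, was one of the largest rises of any gene of at least 10 CPM, from 1.5, 0.996, 1.1 and 1.17 CPM to 21.9, 25.7, 15.7 and 19.4 CPM (4.10, SE 0.25, adjusted p = 1.2e-07).

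Sox2 and Trp63 were not called. Sox2, the factor of airway stalks, stood at 30.5, 39.9, 38.1 and 40.6 CPM at Day 0 and at 59.2, 45.5, 38.2 and 31.4 CPM at Day 2 (log2 FC 0.23, SE 0.18, adjusted p = 0.32), and Trp63, the basal cell factor, at 1.03 to 2.91 and 2.12 to 3.13 CPM. Of 11 tested genes of airway and basal progenitors 5 rose, among them Krt4, a keratin of the suprabasal layer, from at most 0.12 CPM to 0.702 to 1.42 CPM (3.99, SE 0.57), and 1 fell (Snai2, 173 and 112 CPM). Neuroendocrine genes stood near the background, with 4 of 17 higher (23.5%) and 3 lower (17.6%), against 22.6% and 17.6% of all tested genes. The peptide gene Calcb fell from 0.556 to 1.19 CPM to 0.0639 to 0.206 CPM (-2.76, SE 0.42, adjusted p = 1.4e-04), and the decarboxylase gene Ddc rose from 8.61 to 12.1 CPM to 17.6 to 21.1 CPM (0.99, SE 0.11).

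Alveolar type 1 genes rose in 16 of 20 tested members with a median log2 FC of 1.88, and 2 fell. The club cell list had the same largest log2 FC (10.175), so the type 1 and club lists are not fully separate. Ager, the receptor for advanced glycation end products and a type 1 surface marker (chr17:34597862-34600936, plus), stood at 20, 18.8, 19.8 and 20.4 CPM at Day 0 and at 79.5, 102, 110 and 124 CPM at Day 2 (log2 FC 2.39, SE 0.20, adjusted p = 2.3e-06). Hopx, a homeodomain protein of type 1 cells (chr5:77086988-77115121, minus), stood at 7.02, 8.61, 5.55 and 4.13 CPM and at 45.9, 47.7, 50.2 and 53.1 CPM (3.00, SE 0.22, adjusted p = 1.1e-06). An antisense gene overlaps 27.2% of the exon length of Hopx, whose reads cannot be told apart here. Clic5, an intracellular chloride channel protein linked to the cytoskeleton, went from 3.08, 5.62, 3.62 and 8.3 CPM to 57.7, 61.1, 52.8 and 60 CPM (3.46, SE 0.28, adjusted p = 2.3e-06). Day 2 libraries were even for these 3 genes, with no library apart. Lmo7 (18.5 ± 3.07 and 126 ± 4.33 CPM, log2 FC 2.77), Emp2 (2.28), Akap5 (2.10) and the type 1 cell collagens Col4a3 (2.17) and Col4a4 (2.11) rose with them. The water channel Aqp5 (1.69 and 0.799 CPM, -1.06) and Spock2 (27.4 and 15.4 CPM, -0.83), both also type 1 markers, fell.

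Surfactant and type 2 genes rose in 13 of 21 tested members with none lower (median 1.01). Of the 3 tested surfactant proteins 1 rose. Sftpc, the surfactant protein already made by early distal tips (chr14:70520949-70524081, minus), stood at 48.5, 58.1, 92.9 and 92.3 CPM and then at 460, 466, 631 and 740 CPM (log2 FC 2.97, SE 0.26, adjusted p = 5e-06). Sftpb (30.5 ± 27.0 and 43.0 ± 23.4 CPM, adjusted p = 0.65) and Sftpa1 (11.9 ± 9.29 and 5.97 ± 2.45 CPM, adjusted p = 0.13) were not called, and their SD at Day 0 was close to their mean. Abca3, the lipid transporter of lamellar bodies, stood at 39.7, 47.8, 70.2 and 78.5 CPM and at 77, 73.6, 99.3 and 106 CPM, groups that overlap (0.59, SE 0.20, adjusted p = 0.036), and its call was lost in some alternatives. Muc1, an apical mucin (chr3:89229057-89233381, plus), rose from 14.2, 18.7, 15.7 and 22.7 CPM to 104, 105, 85.7 and 89.8 CPM (2.43, SE 0.13, adjusted p = 5.2e-08). The phosphate transporter Slc34a2 went from 0.487 ± 0.687 to 7.59 ± 6.29 CPM (3.57, SE 1.02, adjusted p = 0.017). Lyz2 and Ctsh, counted in this list, are also expressed by macrophages.

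Distal tip genes moved in both directions, with 5 of 18 higher, 7 lower and a median of -0.01. Sox9 stood at 133, 132, 123 and 131 CPM at Day 0 and at 95.3, 92.6, 99.4 and 86.4 CPM at Day 2 (log2 FC -0.47, SE 0.08, adjusted p = 6e-04), and Id2 at 149, 148, 179 and 199 CPM and at 78.6, 87.4, 109 and 108 CPM (-0.82, SE 0.11, adjusted p = 9.2e-05). Every Day 2 library was below every Day 0 library for both. The largest fall in the list was that of Hmga2, a chromatin protein of early progenitors in several tissues, from 417, 331, 264 and 205 CPM to 69.5, 83.1, 89.5 and 76.3 CPM (-1.93, SE 0.18, adjusted p = 4.9e-06). Lin28b, which blocks let-7 microRNAs, fell from 4.13 to 4.54 CPM to 1.33 to 1.89 CPM (-1.34, SE 0.18), and Igf2bp1, an RNA-binding protein of fetal cells, from a mean of 219 to 117 CPM. Etv4, Etv5 and Bmp4 were not called. Nkx2-1 (0.51), Mycn (0.47) and the receptor Fgfr2 (0.28) rose.

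Most genes shared by all epithelium rose. Of 29 tested genes of epithelial identity and junctions 25 rose and none fell, with a median log2 FC of 0.61. Epcam, a surface protein of all lung epithelium, stood at 210, 204, 230 and 229 CPM and at 328, 322, 285 and 277 CPM (log2 FC 0.47, SE 0.07, adjusted p = 9.5e-05), and E-cadherin (Cdh1) at 186, 190, 229 and 246 CPM and at 471, 442, 411 and 401 CPM (1.02, SE 0.09, adjusted p = 2.3e-06). Keratins rose further, Krt19 by 1.55 (SE 0.09) and Krt7 by 1.48 (SE 0.10). Transporters that move salt and water across the airway rose in 13 of 18 members (median 0.92), and 2 fell. All 3 subunits of the sodium channel ENaC were called: Scnn1a rose from 1.78 to 3.35 CPM to 5.49 to 12.1 CPM (1.67), Scnn1b from 3.16 to 4.84 CPM to 15.3 to 20 CPM (2.12) and Scnn1g from 4.26 to 10.7 CPM to 27.2 to 31.7 CPM (1.95). The chloride channel Ano1 rose from 62.2 to 79 CPM to 200.2 to 267 CPM (1.73, SE 0.11), whereas Cftr, the other main chloride channel of fetal lung fluid, stood at 27.3, 27.3, 50.8 and 66.5 CPM and at 62.1, 47, 41.7 and 40.4 CPM (0.15, SE 0.26, adjusted p = 0.70).

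**Figure D2:**
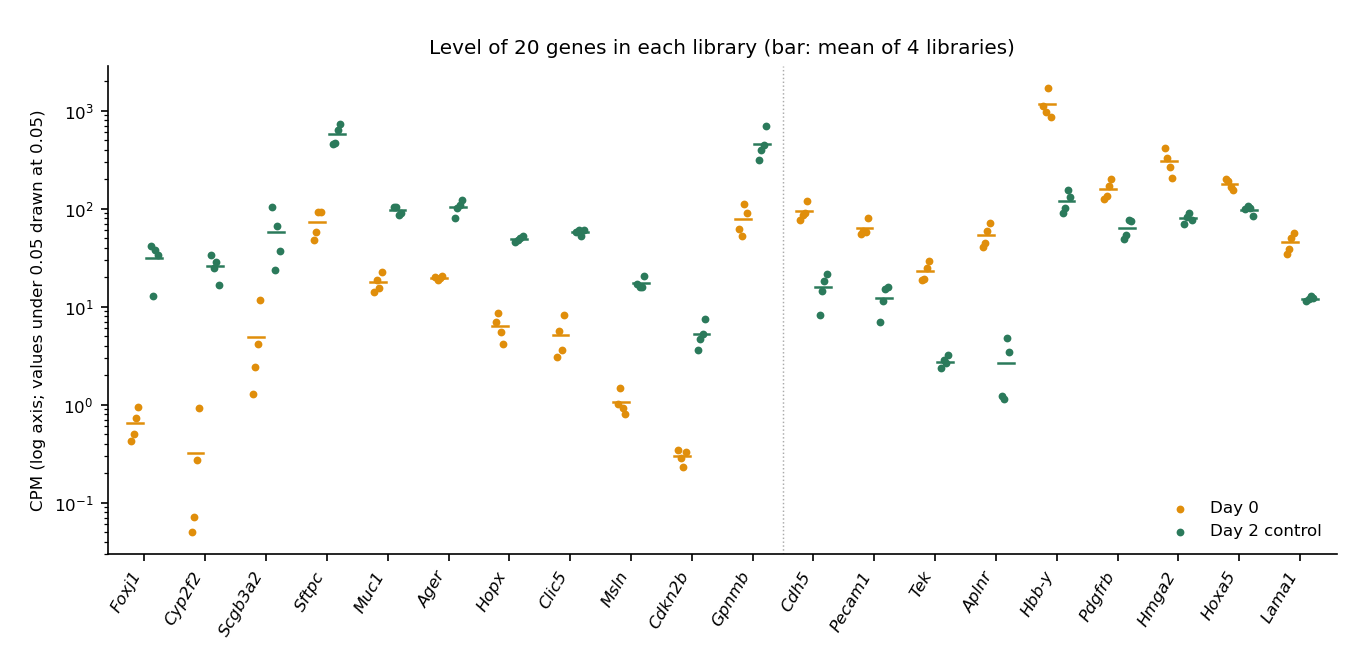
Level of 20 genes in each library, in CPM on a log axis, with Day 0 in orange, Day 2 control in green and a bar at the mean of 4 libraries; values under 0.05 are drawn at 0.05. The 2 groups are separate for each gene, from Foxj1 (0.428 to 0.958 against 12.8 to 41.8 CPM) to Lama1 (34.7 to 56.7 against 11.3 to 12.8 CPM).

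Most blood vessel genes fell. Of 36 tested endothelial genes 31 were called lower, none higher, and the median log2 FC was -2.10. Cdh5, the cadherin of endothelial junctions (chr8:104101625-104144511, plus), stood at 76.9, 87.1, 90.8 and 121 CPM at Day 0 and at 8.3, 14.6, 18.5 and 21.6 CPM at Day 2 (log2 FC -2.60, SE 0.24, adjusted p = 6.4e-06), and Pecam1, the adhesion protein CD31, at 55.6, 58.7, 58.2 and 79.9 CPM and at 6.98, 11.3, 15.3 and 16 CPM (-2.37, SE 0.23, adjusted p = 8.5e-06). Every Day 2 value lay far below every Day 0 value, and endothelial RNA was still present in each Day 2 library. The apelin receptor Aplnr, a gene of veins and sprouting vessels (chr2:85136225-85139923, plus), fell most among all genes of at least 10 CPM, from 40.9, 44.8, 59.7 and 71.3 CPM to 1.22, 1.13, 4.76 and 3.45 CPM (-4.40, SE 0.41, adjusted p = 9.3e-06). Tek, the receptor of angiopoietins, went from 18.8, 19.2, 24.9 and 29.6 CPM to 2.35, 2.85, 2.65 and 3.19 CPM (-3.08, SE 0.16, adjusted p = 4.3e-08). The arterial factor Sox17 fell to 0.943 CPM (-3.70), and the pan-endothelial factors Erg (-1.27) and Fli1 (-1.29) and the more widely expressed Ets1 (-1.01) fell by less. Members that were not called were Eng (38.4 and 38.8 CPM), Flt4, Gja5, Apln and Gpihbp1. Leaving out single libraries left 30 to 32 members lower.

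The lymphatic markers Prox1 and Lyve1 were not called. Prox1, the factor of lymphatic identity, stood at 8.09, 11.5, 7.98 and 7.73 CPM and at 7.69, 7.62, 5.71 and 8.05 CPM (log2 FC -0.28, SE 0.20, adjusted p = 0.30), and Lyve1 at 7.87 to 12.3 and 7.58 to 10 CPM (-0.22, SE 0.15, adjusted p = 0.27). Of the 9 tested members 3 rose (Pdpn, Nrp2 and Thy1) and Nr2f2 fell. These 4 are expressed well beyond lymphatic cells, and Lyve1 also marks macrophages. The difference between the 2 vessel lists was not tested.

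In the VEGF and angiopoietin list, 4 of 19 genes rose and 9 fell (median -0.55), and both ligands and receptors moved in both directions. Among ligands, Vegfa itself stood at 359 ± 103 CPM at Day 0 and 462 ± 18.8 CPM at Day 2 with overlapping groups (log2 FC 0.36, SE 0.15, adjusted p = 0.070), Vegfb was not called (-0.01), and Vegfc fell (9.60 and 6.54 CPM, -0.55). Figf, which encodes VEGF-D and is made by lung mesenchyme, rose from 23.1 ± 10.9 to 67.4 ± 6.61 CPM (1.52, SE 0.26, adjusted p = 5.2e-04). Placental growth factor (Pgf) fell from 60.8, 65.4, 44.3 and 49.5 CPM to 22.3, 27.2, 31.5 and 26.2 CPM (-1.04, SE 0.12, adjusted p = 2.3e-05). Angpt2, a ligand of Tek (18.1 and 24.9 CPM, 0.47), and the angiopoietin-like gene Angptl4 (10.6 and 22.7 CPM, 1.09) rose, and Angpt1 was not called (-0.11). Among receptors, the main signalling receptor Kdr fell from 96.5 ± 30.8 to 30.0 ± 5.69 CPM (-1.69, SE 0.21, adjusted p = 4.5e-05) and the decoy receptor Flt1 fell from 13.1 ± 5.05 to 1.50 ± 1.08 CPM (-3.22, SE 0.45, adjusted p = 1.2e-04). The tip cell gene Esm1 (-2.46) and the Notch ligand Dll4 (-1.39) fell. Flt4, the receptor of VEGF-C, was not called (-0.22, SE 0.17, adjusted p = 0.34). Of the co-receptors, which nonvascular cells also express, Nrp2 rose (115 and 164 CPM; 0.52, SE 0.09) and Nrp1 was not called (142 and 160 CPM).

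Pericytes, which wrap capillaries, showed 6 of 14 genes lower and 1 higher (median -0.72). Pdgfrb, their growth factor receptor, fell from 126, 136, 169 and 201 CPM to 49.5, 53.7, 76.8 and 75.2 CPM (log2 FC -1.31, SE 0.17, adjusted p = 5.6e-05), and the G protein regulator Rgs5 from 30.2 to 55.2 CPM to 10.6 to 18.4 CPM (-1.57, SE 0.20). Heyl and Ebf1 fell by 1.89 and 2.38. The defining markers Cspg4 (15.2 to 35.3 CPM and 25.2 to 26.9 CPM) and Kcnj8 (4.34 to 9.73 CPM and 1.8 to 5.17 CPM) were not called. Smooth muscle genes were divided, 6 of 23 higher and 7 lower (median -0.18, which turned to 0.02 when only libraries with Y-linked reads were used). The smooth muscle actin Acta2 stood at 139, 174, 146 and 148 CPM and at 150, 101, 123 and 139 CPM (-0.24, SE 0.13, adjusted p = 0.15), and the myosin Myh11 at 51.2 to 133 and 45.7 to 87.9 CPM. Integrin Itga8 (-0.76), the enteric actin Actg2 (-0.87) and caldesmon (Cald1, -0.66) fell, whereas Hhip, a Hedgehog-binding protein of airway smooth muscle, rose from 101 to 119 CPM to 165 to 212 CPM (0.78, SE 0.08).

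In the list of lung mesenchyme and fibroblast genes, 17 of 30 were lower and 5 higher (median -0.38), and most of the lower ones encode transcription factors. Tcf21 went from 104 to 111 CPM to 76.7 to 97.3 CPM (log2 FC -0.33, SE 0.09, adjusted p = 0.011), Meis2 from 73.9 to 79.9 CPM to 47.1 to 52.1 CPM (-0.61, SE 0.06) and Nr2f1 from 33.7 to 41.6 CPM to 18.3 to 22.9 CPM (-0.90, SE 0.09), with no overlap of groups for the 3 genes. Prrx2 (-1.15) and Heyl (-1.89) fell by more. The factors Tbx4 (-0.15, SE 0.10), Tbx2, Foxf2, Twist1 and Prrx1 were not called, and the ligand Wnt2 and the receptor Pdgfra were among the lower genes. The members that rose were Wt1, Mfap4, the matrix proteins Ogn (13.4, 12.2, 11 and 15.1 CPM, then 91.9, 54.6, 61.7 and 63.5 CPM; 2.39, SE 0.21, adjusted p = 4.1e-06) and Dcn (1.08), and the growth factor Fgf10 (0.56).

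Hox genes, which hold positional identity along the body axis, fell in 16 of 21 tested members with none higher and a median of -0.80. Hoxa5, which is required for normal lung and trachea development (chr6:52201754-52204587, minus), stood at 200.01, 192, 166 and 155 CPM at Day 0 and at 98.7, 107, 102 and 83.8 CPM at Day 2 (log2 FC -0.86, SE 0.09, adjusted p = 6.5e-06). Hoxb4 stood at 82.2, 80, 77.9 and 70.5 CPM and at 43.2, 47.3, 49.5 and 43.5 CPM (-0.76, SE 0.07, adjusted p = 2.3e-06), and Hoxb5 at 151 to 168 and 81.9 to 103 CPM (-0.76, SE 0.09). The Day 2 values of these genes were close to each other in all 4 libraries. Falls spanned the A, B and D clusters, and the 5 tested genes not called were Hoxa7, Hoxb7, Hoxc4, Hoxc5 and Hoxd1, each below 8 CPM on average.

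Cartilage genes of the developing trachea and bronchi fell in 6 of 17 members and rose in 3 (median -0.29). Col2a1, the main collagen of cartilage, stood at 153, 169, 176 and 191 CPM and at 70.5, 91.1, 138 and 93.5 CPM (log2 FC -0.81, SE 0.18, adjusted p = 0.0031), and Col9a1 fell from 20.4 to 28.3 CPM to 5.7 to 7.71 CPM (-1.81, SE 0.12). Against this direction, Col10a1, the collagen of hypertrophic cartilage, had no count at Day 0 and 65 counts at Day 2, at least 19.06-fold more. Mesothelial genes, of the outer lining of the lung, rose in 8 of 19 members, fell in 1 and were not called in 10 (median 0.44). The 8 included the keratins Krt19 (1.55), described above with the epithelium, and Krt8 (0.94). Msln, which encodes mesothelin, rose from 1.03, 1.49, 0.917 and 0.809 CPM to 17.1, 15.9, 16 and 20.4 CPM (4.09, SE 0.25, adjusted p = 9.8e-08). Msln is also expressed by some epithelial cells, and another marker, Upk3b, was not called (19.3 to 32.1 and 22.5 to 47.8 CPM). Neural genes stood near the background, with 6 of 26 higher (23.1%) and 5 lower (19.2%), against 22.6% and 17.6% of all tested genes. The intermediate filament gene Prph rose from 3.68 to 5.48 CPM to 13 to 17.8 CPM (1.57, SE 0.16), while the axonal growth gene Gap43 (-0.76) and the neurofilament gene Nefm (-0.92) fell, and the crest marker Sox10 was not called.

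Embryonic globins fell, with no overlap of groups. Hbb-y (chr7:103851749-103853216, minus) stood at 1105, 971, 1698 and 870 CPM at Day 0 and at 90.1, 102, 154 and 131 CPM at Day 2 (log2 FC -3.29, SE 0.27, adjusted p = 2.7e-06), and Hba-x at 255, 271, 434 and 156 CPM and at 17.8, 20.4, 34.3 and 24.3 CPM (-3.53, SE 0.37, adjusted p = 3e-05). Alas2, the first enzyme of heme synthesis in red cells, went from 17.9 to 27.1 CPM to 0.837, 0.823, 2.07 and 5.11 CPM (-3.38, SE 0.45), with control replicate 4 the highest at Day 2. Globin genes are near-identical in parts, so that values of single members are uncertain to the extent that reads map to several. Over the erythroid list 6 of 16 genes fell and 3 rose, with a median of -0.44 that was -2.10 without control replicate 4, where 9 fell, and 0.22 when only libraries with Y-linked reads were used. Tfrc (345 and 655 CPM) and Car2 (56.7 and 89.6 CPM), which many cell types express, were among those that rose.

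Liver transcripts were high in control replicate 4 alone among the 8 libraries. Alb stood at 638 CPM there and at most 0.55 CPM in the other 7, and Afp at 745 CPM there and at most 16.1 CPM elsewhere. The summed level of the 19 liver genes in the table was 34.7 to 47.5 CPM at Day 0, with 75.1 CPM as the lowest and 2108 CPM as the highest value at Day 2. Of the 8 tested liver genes 3 were called higher (Alb, Trf, Rbp4). Without control replicate 4, the log2 fold change of Alb was 0.03 (adjusted p = 0.98), the log2 fold change of Afp turned from 4.51 to -4.78 (adjusted p = 1.4e-04), and 2 genes of the list rose and 4 fell. Afp in the other 3 control libraries was 0.0644 to 0.612 CPM against 3.89 to 16.1 CPM at Day 0. Scores of control replicate 4, the mean log2 level of a list's tested members relative to Day 0, were the highest of the 8 libraries for 18 of the 54 lists. Those of liver, leukocytes, skeletal muscle, the unfolded protein response, the integrated stress response, interferon genes and cytokines are given with and without this library where they are described. Of the others, surfactant and type 2 genes had 11 members higher without it, fatty acid genes 15 (and 4 lower), NRF2 targets 10, YAP and TAZ targets 11, immediate early genes 10, collagens 6, elastic fibre genes 9 and matrix proteases 9. Type 1 genes had 16 higher, ion transport genes 12 and other matrix genes 11. The part of liver cells in their values was not tested.

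Leukocyte genes rose in 9 of 30 members (30.0%, against 22.6% of all tested genes) and none fell. Their median was 0.34, or 0.13 with 7 higher and 2 lower without control replicate 4. The general leukocyte marker Ptprc stood at 4.91 to 8.18 CPM at Day 0 and at 7.95, 7.41, 6.76 and 14.4 CPM at Day 2 (log2 FC 0.44, SE 0.25, adjusted p = 0.17), and the macrophage markers Adgre1 (0.46), Csf1r (-0.13) and Cx3cr1 (-0.02) were not called either. The 9 that rose were Cd68, Itgam, Tyrobp, Fcer1g, Cd53, Lyz2, Trem2, Gpnmb and Mpeg1. Gpnmb, a lysosomal membrane glycoprotein, went from 62.3, 52.6, 112 and 89.6 CPM to 317, 399, 443 and 693 CPM (2.54, SE 0.38, adjusted p = 3.3e-04), Mpeg1, a pore-forming protein of macrophages, from 26.5 to 38.1 CPM to 60.9 to 115 CPM (1.35, SE 0.20) and Cd68 from 19.3 to 25.2 CPM to 37.6 to 61.2 CPM (1.09, SE 0.16). The macrophage elastase Mmp12 rose from at most 0.0899 CPM to 1.33 to 6.58 CPM (5.83, SE 0.80). Groups did not overlap for these 4 genes, with control replicate 4 the highest in each. Of the lists of other organs, that of heart muscle had 1 of 13 genes higher, and that of skeletal muscle 3 of 6 (median 0.68, or 0.38 without control replicate 4), with Myh8, a perinatal muscle myosin, at 0.941, 1.28, 3.53 and 4.28 CPM and then 22.3, 23.9, 22 and 16.4 CPM (3.01, SE 0.34, adjusted p = 2.9e-05). The muscle factor Myog was at most 0.137 CPM in 7 libraries and 4.79 CPM in control replicate 4, the library with the lowest Day 2 value of Myh8.

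**Figure D3:**
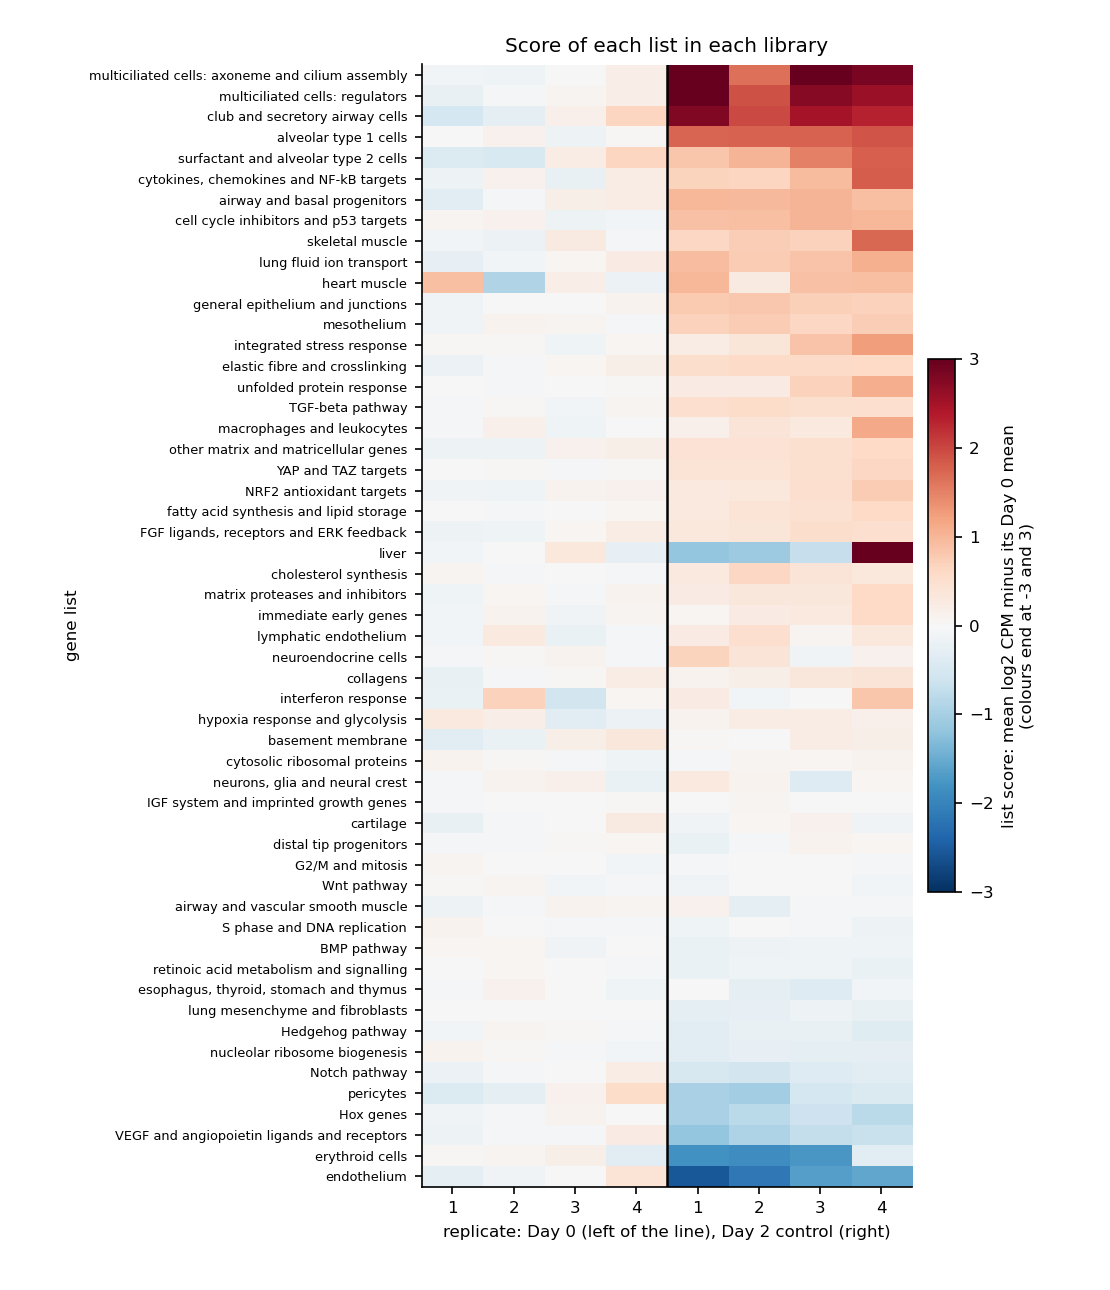
Score of each of the 54 lists in each library, where the score is the mean log2 CPM of the tested members minus its Day 0 mean (red positive, blue negative, colours ending at -3 and 3); lists run from the highest to the lowest mean Day 2 score, with the 4 Day 0 replicates left of the line and the 4 Day 2 control replicates right of it. Ciliary lists lie at the top (axoneme 1.64 to 3.54 at Day 2), endothelium at the bottom (-2.55 to -1.56), and control replicate 4 alone has a high liver score (4.62).

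In the list of FGF ligands, receptors and feedback genes, 12 of 23 genes rose and 4 fell (median 0.28). The 6 tested ligands rose, among them Fgf7, which drives epithelial growth, from 0.813, 0.925, 1.65 and 1.5 CPM to 6.98, 4.49, 5.71 and 8.24 CPM (log2 FC 2.34, SE 0.28, adjusted p = 2.9e-05), Fgf1 from 14.7 ± 9.22 to 63.1 ± 12.4 CPM (2.07, SE 0.35) and Fgf10 by 0.56 (SE 0.10). The carrier protein Fgfbp1, which frees FGFs from matrix, rose from 4.06, 4.13, 3.35 and 2.85 CPM to 19.8, 24.6, 21.9 and 22.9 CPM (2.65, SE 0.14, adjusted p = 4.1e-08), and the receptor Fgfr3 from 58.6 to 86.5 CPM to 140 to 152 CPM (1.01, SE 0.09). Fgfr2 rose by 0.28, and Fgfr4 was not called. Negative feedback phosphatases of the ERK pathway, Dusp4 (-0.77), Dusp5 (-0.69) and Dusp6 (-0.68), made up 3 of the 4 falls, and the receptor Fgfr1 the fourth. Spry1, another feedback inhibitor, rose by 0.71.

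Hedgehog signalling, from epithelial Shh to mesenchyme, had 10 of 17 genes lower and 2 higher (median -0.40). The ligand Shh rose from 44.1, 41.4, 37 and 34.5 CPM to 65.2, 68.2, 60.5 and 54.7 CPM (log2 FC 0.67, SE 0.09, adjusted p = 5.9e-05), whereas transducers of its signal fell, among them Gli3 from 213, 184, 253 and 227 CPM to 139, 138, 132 and 128 CPM (-0.71, SE 0.08, adjusted p = 2.2e-05), Gli2 by 0.74, and the inhibitor Sufu from 107 to 124 CPM to 69.4 to 80.4 CPM (-0.67, SE 0.07). Among target genes, Gli1 fell (158 and 104 CPM), Ptch1 was not called (287 and 291 CPM) and Hhip rose, so the targets did not share a direction.

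Wnt genes moved in both directions, 10 of 37 higher and 9 lower (median -0.11), and 6 rose when control replicate 2 was left out or when only libraries with Y-linked reads were used. Among ligands Wnt5a, which acts outside the canonical pathway, rose from 52.4 to 67.7 CPM to 86.9 to 103 CPM (log2 FC 0.63, SE 0.08), while the canonical ligands Wnt2 (-0.48) and Wnt7b (-0.66) fell. Lef1, a transcriptional effector and target, fell from 56.9, 62.1, 61.9 and 56.4 CPM to 23.5, 31.1, 34.9 and 28.4 CPM (-1.01, SE 0.11, adjusted p = 1.7e-05), whereas the target Axin2 was not called (69.2 and 81.8 CPM). BMP genes fell in 10 of 29 members and rose in 4 (median -0.15), with the transducer Smad1 (-0.55), the targets Id2 and Id3 (-0.56) and the decoy receptor Bambi (-0.65) lower and the ligand Bmp5 higher (78.3 to 95.7 and 128 to 132 CPM). An opposite-strand gene covers 46.7% of the exon length of Bmp5.

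Retinoic acid genes fell in 7 of 18 members and rose in 2 (median -0.05). The 2 were Aldh1a1 (1.03) and Rbp4 (1.16), which is also counted in the liver list. Rbp4 stood at 35.4 CPM in control replicate 4 and at most 11.8 CPM in the other controls. Stra6, the membrane receptor that takes up retinol, showed the largest fall, from 18.3, 21.9, 21.6 and 15.5 CPM to 3.64, 4.8, 4.52 and 4.53 CPM (log2 FC -2.14, SE 0.13, adjusted p = 1.3e-07). Crabp2, which carries retinoic acid to the nucleus, fell from 10.2 to 15 CPM to 4.53 to 6.04 CPM (-1.34, SE 0.15), and the degrading enzyme Cyp26b1 by 0.75 (SE 0.11). The main synthetic enzyme Aldh1a2 (77.0 and 88.4 CPM) and the target Rarb (69.1 and 72.8 CPM) were not called. Notch genes fell in 9 of 23 members and rose in 3 (median -0.09). The largest falls were those of Notch4 (19.3, 22.1, 26.1 and 41.7 CPM, then 2.74, 3.05, 5.57 and 6.26 CPM; -2.67, SE 0.33, adjusted p = 5.2e-05), Mfng (-2.19), Heyl (-1.89, also counted among the pericyte genes) and Dll4 (-1.39). Notch4 and Dll4 are known as genes of endothelium. The glycosyltransferase Lfng rose from 10.3 to 12.8 CPM to 18.1 to 23 CPM (0.82, SE 0.10).

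TGF-beta genes rose in 8 of 23 members and fell in 6 (median 0.02, which turned negative under other scalings). Cdkn2b, a cyclin-dependent kinase inhibitor induced by this pathway (chr4:89306299-89311039, minus), rose from 0.342, 0.285, 0.229 and 0.329 CPM to 3.64, 4.7, 5.3 and 7.47 CPM (log2 FC 4.10, SE 0.36, adjusted p = 2.4e-06). Ltbp2, a matrix protein of the latent TGF-beta binding family, rose from 7.83, 9.75, 9.67 and 17.7 CPM to 91.6, 91.3, 64.4 and 63.6 CPM (2.77, SE 0.23, adjusted p = 2.3e-06), and Ctgf from 4.01 to 6.9 CPM to 20.4 to 29.5 CPM (2.17, SE 0.24). The receptors Tgfbr1 (-0.28) and the transducers Smad3 (-0.25) and Smad4 (-0.24) fell slightly. Ctgf and Cyr61 (8.51 to 15.9 and 31.1 to 44 CPM; 1.61, SE 0.24) are also targets of YAP and TAZ, the effectors of the Hippo pathway, whose list had 14 of 25 genes higher and 3 lower (median 0.29). In that list Nuak2 (1.64, SE 0.12) and the pathway member Wwc1 (1.21, SE 0.09) rose and Yap1 itself fell (360 and 283 CPM, -0.35).

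In the IGF and imprinted gene list 6 of 23 genes rose and 10 fell (median -0.17). The paternally expressed growth factor Igf2 stood at 3769, 4014, 3120 and 3121 CPM and at 5244, 5387, 4200 and 4038 CPM (log2 FC 0.43, SE 0.11, adjusted p = 0.009), and H19, the maternally expressed RNA beside it, at 6075, 6570, 5215 and 5420 CPM and at 9083, 9944, 7985 and 7995 CPM (0.59, SE 0.09, adjusted p = 2.2e-04). H19 and Igf2 were 2 of the 5 genes that gained most in CPM. The Igf2 exons overlap a same-strand gene model over 62.8% of their length. Other imprinted genes of the list differed. Mest fell from 647, 612, 678 and 741 CPM to 276, 302, 291 and 290 CPM (-1.21, SE 0.07, adjusted p = 4.5e-08) and Peg3 from 685 to 852 CPM to 488 to 538 CPM (-0.58, SE 0.08), and Meg3 (-0.42) and Plagl1 (-0.35) fell as well. Sgce rose (31.0 and 44.0 CPM; 0.51, SE 0.09), and Grb10, Dlk1, Cdkn1c and Ndn were not called. Igfbp7, a secreted binding protein, rose from 3.25, 3.99, 4.08 and 4.88 CPM to 29.8, 30.9, 28.9 and 37.5 CPM (2.95, SE 0.18, adjusted p = 9.5e-08). Igfbp3 (123 and 60.6 CPM) moved the other way.

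Proliferation genes changed little while inhibitors of the cell cycle rose. Of 34 S phase genes 1 rose and 8 fell (median -0.06, and 4 fell when Day 0 replicate 2 was left out), and of 34 genes of G2 and mitosis 3 rose and 6 fell (-0.04). Mki67, the usual proliferation marker, averaged 828 and 834 CPM and Top2a 876 and 889 CPM. All changes in these lists were under 0.5 on the log2 scale. Among the called genes were Mcm4 (353, 322, 324 and 313 CPM, then 264, 293, 270 and 247 CPM; -0.29, SE 0.07, adjusted p = 0.0038), a subunit of the replicative helicase, and Nek2 (0.41, SE 0.07), a centrosome kinase. The letters CCAAT, bound by NF-Y in promoters of mitotic genes, occurred in 24 of the 29 promoter-matched genes of G2 and mitosis (82.8%; 83.3% of their 30 promoters, against 37.4% of all promoters). Inhibitors and p53 targets rose in 25 of 29 members and fell in 2, with a median of 0.69. Cdkn1a, the p21 inhibitor, rose from 26.1 ± 9.86 to 161 ± 20.5 CPM (2.65, SE 0.24, adjusted p = 5.9e-06). Ccng1, a p53 target, rose from 150, 143, 113 and 99.7 CPM to 361, 337, 359 and 304 CPM (1.43, SE 0.13, adjusted p = 2.5e-06), Pmaip1, which encodes the death-promoting protein Noxa, from 1.24 to 2.7 CPM to 8.47 to 9 CPM (2.31, SE 0.20) and Cdkn2c from 8.26 to 11.5 CPM to 22.6 to 26.4 CPM (1.28, SE 0.10). The gene of p53 itself, Trp53, fell from 190 ± 13.4 to 143 ± 11 CPM (-0.41), and Cdkn1c was not called.

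Genes of ribosome assembly in the nucleolus fell in 21 of 31 members, none rose, and the median was -0.27. Myc, which drives this program in many cells, fell from 67.9, 71.2, 82 and 91.4 CPM to 31.3, 36.6, 44.8 and 47.3 CPM (log2 FC -0.97, SE 0.13, adjusted p = 5e-05), and the RNA polymerase I subunit Polr1a from 147 to 158 CPM to 101 to 110 CPM (-0.51, SE 0.06). Mybbp1a (-0.46, SE 0.05) and Heatr1 (-0.51, SE 0.06) showed the same separation of groups. Of the ribosomal proteins 3 of 51 were called, all higher and each by at most 0.27 (Rpl23, Rps24, Rpl17), and the median was 0.08. The calls of Rps24 and Rpl17 were lost in some alternatives.

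In the cholesterol synthesis list 19 of 24 genes rose and none fell (median 0.40; 12 rose when only libraries with Y-linked reads were used). Insig1, partner of the sterol sensor, went from 80.3, 58.4, 73.2 and 72.3 CPM to 121, 123, 143 and 140 CPM (log2 FC 0.89, SE 0.10, adjusted p = 1.1e-05), with no overlap of groups, while Srebf2, the factor that drives the pathway, was not called (257 and 275 CPM). Fatty acid genes rose in 18 of 28 members and fell in 3 (median 0.36), from -0.45 for Dgat1 to 2.56 for Plin4, a gene under 0.5 CPM. Both stearoyl-CoA desaturases rose, Scd1 from 108, 75.4, 101 and 104 CPM to 238, 309, 244 and 224 CPM (1.39, SE 0.12, adjusted p = 1.8e-06) and Scd2 from 2269, 2073, 2153 and 2170 CPM to 3273, 3789, 3403 and 3232 CPM (0.66, SE 0.07, adjusted p = 6.8e-06). The synthase Fasn was not called (545 and 491 CPM), and the first committed enzyme, Acaca, fell (-0.26). Lipid uptake genes Lpl (1.07) and Cd36 (1.04) rose.

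Glycolytic and hypoxia genes were divided, 13 of 40 higher and 4 lower (median 0.22). This was the least stable count: 5 rose when only libraries with Y-linked reads were used, 7 or 8 without Day 0 replicate 3, Day 0 replicate 4, control replicate 2 or control replicate 3, and 20 in limma-voom. Pdk1, which holds pyruvate back from mitochondria, rose from 90.1 to 113 CPM to 148 to 196 CPM (log2 FC 0.78, SE 0.09), whereas hexokinase Hk2 fell from 229.9, 182, 164 and 191 CPM to 102, 109, 124 and 112 CPM (-0.78, SE 0.10, adjusted p = 4.6e-05) and Pfkfb3 from 154 to 246 CPM to 98.3 to 114 CPM (-0.91, SE 0.13). Hif1a was not called. The letters GCGTG, core of the hypoxia response element, occurred in 25 of 37 matched genes (67.6%) and 60.4% of their 53 promoters, against 32.4% of all promoters and 48.6% of those of tested genes.

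Stress genes of the endoplasmic reticulum rose in 18 of 22 members with none lower (median 0.56; 16 higher and 0.42 without control replicate 4). The chaperone Hsp90b1 stood at 1065, 914, 1029 and 1002 CPM and at 1519, 1378, 1615 and 2070 CPM (log2 FC 0.71, SE 0.12, adjusted p = 2.8e-04), with control replicate 4 highest, and calreticulin (Calr) at 628 to 809 and 975 to 1263 CPM (0.58, SE 0.09). The integrated stress response, by which cells answer amino acid shortage and other stresses through Atf4, rose in 16 of 28 members and none fell (median 0.62; 11 higher, 1 lower and 0.40 without control replicate 4). Nupr1, a stress-induced chromatin protein, stood at 2.57, 3.2, 2.25 and 2.85 CPM and at 13.5, 12.8, 19.4 and 43.3 CPM (3.02, SE 0.39, adjusted p = 7.3e-05). Gdf15, a secreted stress hormone, rose from 0.214 to 0.389 CPM to 1.61 to 4.92 CPM (3.18, SE 0.54). Amino acid enzymes of this program were mixed: Psat1 rose (0.53, SE 0.09), and Asns, Phgdh and Shmt2 were not called. Antioxidant targets of NRF2 rose in 12 of 26 members and fell in 2 (0.33), with glutathione reductase Gsr at 47.1 to 53.4 and 71 to 80.5 CPM (0.65, SE 0.06), and Nqo1, a usual readout of NRF2, not called. Immediate early genes rose in 10 of 26 members and fell in 5 (0.27).

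Collagen genes were divided, with 9 of 29 higher (31.0%) and 6 lower (20.7%), against 22.6% and 17.6% of all tested genes (median 0.17). Fibrillar Col1a1 (1311 and 1274 CPM) and Col3a1 (2938 and 3298 CPM) were not called. The chains of collagen IV found in basement membranes of mature alveoli and kidney glomeruli rose: Col4a3 from 3.85, 4.98, 3.62 and 4.85 CPM to 16.1, 20.4, 21 and 20.5 CPM (log2 FC 2.17, SE 0.17, adjusted p = 1e-06), Col4a4 from 12.4 to 19.1 CPM to 53.5 to 79.7 CPM (2.11, SE 0.15) and Col4a5 from 135 to 166 CPM to 284 to 309 CPM (0.97, SE 0.07), while the widely expressed Col4a1 and Col4a2 were not called. Laminin chains moved in both directions. Lama1, the laminin chain of the early embryo, fell from 34.7, 38.9, 50.6 and 56.7 CPM to 11.3, 12, 12.8 and 12.4 CPM (-1.90, SE 0.17, adjusted p = 3.2e-06), whereas Lama5 (0.56) and the epithelial chain Lamb3 (1.38, SE 0.14) rose. Over the basement membrane list 6 of 20 genes rose and 2 fell (median 0.03).

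Elastic fibre genes, on which later septation depends, rose in 12 of 21 members and fell in 3 (median 0.26). The crosslinking enzyme Lox stood at 263, 216, 211 and 217 CPM and at 549, 461, 465 and 460 CPM (log2 FC 1.09, SE 0.11, adjusted p = 4.9e-06), fibulin-5 (Fbln5) at 18.3 to 24.3 and 54.9 to 62.7 CPM (1.48, SE 0.13), and elastin (Eln) averaged 373 and 544 CPM (0.54). Among other matrix genes 12 of 23 rose and 7 fell (median 0.48), with small proteoglycans such as Fmod (196, 191, 224 and 228 CPM, then 427, 437, 404 and 450 CPM; 1.03, SE 0.08, adjusted p = 5.7e-07) higher and versican, a large proteoglycan of loose embryonic matrix, lower (Vcan 1030, 806, 1261 and 1316 CPM, then 773, 708, 639 and 541 CPM; -0.73, SE 0.16, adjusted p = 0.0026). Of the 7 falls 4 were called when Day 0 replicate 3 or control replicate 1 was left out. Proteases and inhibitors had 10 of 24 higher and 6 lower (0.15), with tissue plasminogen activator (Plat) at 43.5 to 57.8 and 16.3 to 20.2 CPM (-1.47, SE 0.11) and the aggrecanase Adamts5 at 24.3 to 35.7 and 59.6 to 66.9 CPM (1.13, SE 0.11).

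Interferon response genes rose in 8 of 33 members (24.2%, against 22.6% of all tested genes) and fell in 1. Their median was 0.25, or -0.09 without control replicate 4. The 8 held 5 genes of antigen presentation on MHC class I (Tap1, Tapbp, B2m, H2-K1 and H2-D1), such as the peptide transporter Tap1 (3.17, 4.98, 2.89 and 4.43 CPM, then 13, 13.2, 15.3 and 14 CPM; log2 FC 1.85, SE 0.16, adjusted p = 2.4e-06), its partner Tapbp (0.92, SE 0.08) and B2m (77.3 to 83 and 117 to 138 CPM; 0.64, SE 0.10). The other 3 were Ifi27 (3.79 and 8.90 CPM, 1.26), Ifi35 (0.84) and Ifit2 (29.6 and 41.6 CPM, 0.49), and Ifitm1 fell (-0.46). Isg15, Ifit1, Ifit3, Mx1, Mx2, Oas1a and Rsad2 were not called. Cytokine and NF-kB genes rose in 12 of 26 members and fell in 1 (median 1.32, or 0.50 with 9 higher without control replicate 4). Most that rose were at low levels, such as Lif, a cytokine of the interleukin-6 family (0.171, 0.142, 0.229 and 0.15 CPM, then 1.09, 0.789, 1.63 and 1.98 CPM; 2.93, SE 0.39, adjusted p = 5.9e-05). Icam1, an adhesion molecule also found on type 1 cells, rose from 20.8 to 22.3 CPM to 47.6 to 97.6 CPM (1.72, SE 0.21). The fall was that of Cxcl12, a chemokine of the mesenchyme that guides vessels and leukocytes, from 112, 106, 121 and 130 CPM to 51.6, 62.1, 50.9 and 55.9 CPM (-1.09, SE 0.09, adjusted p = 1.5e-06).

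**Figure D4:**
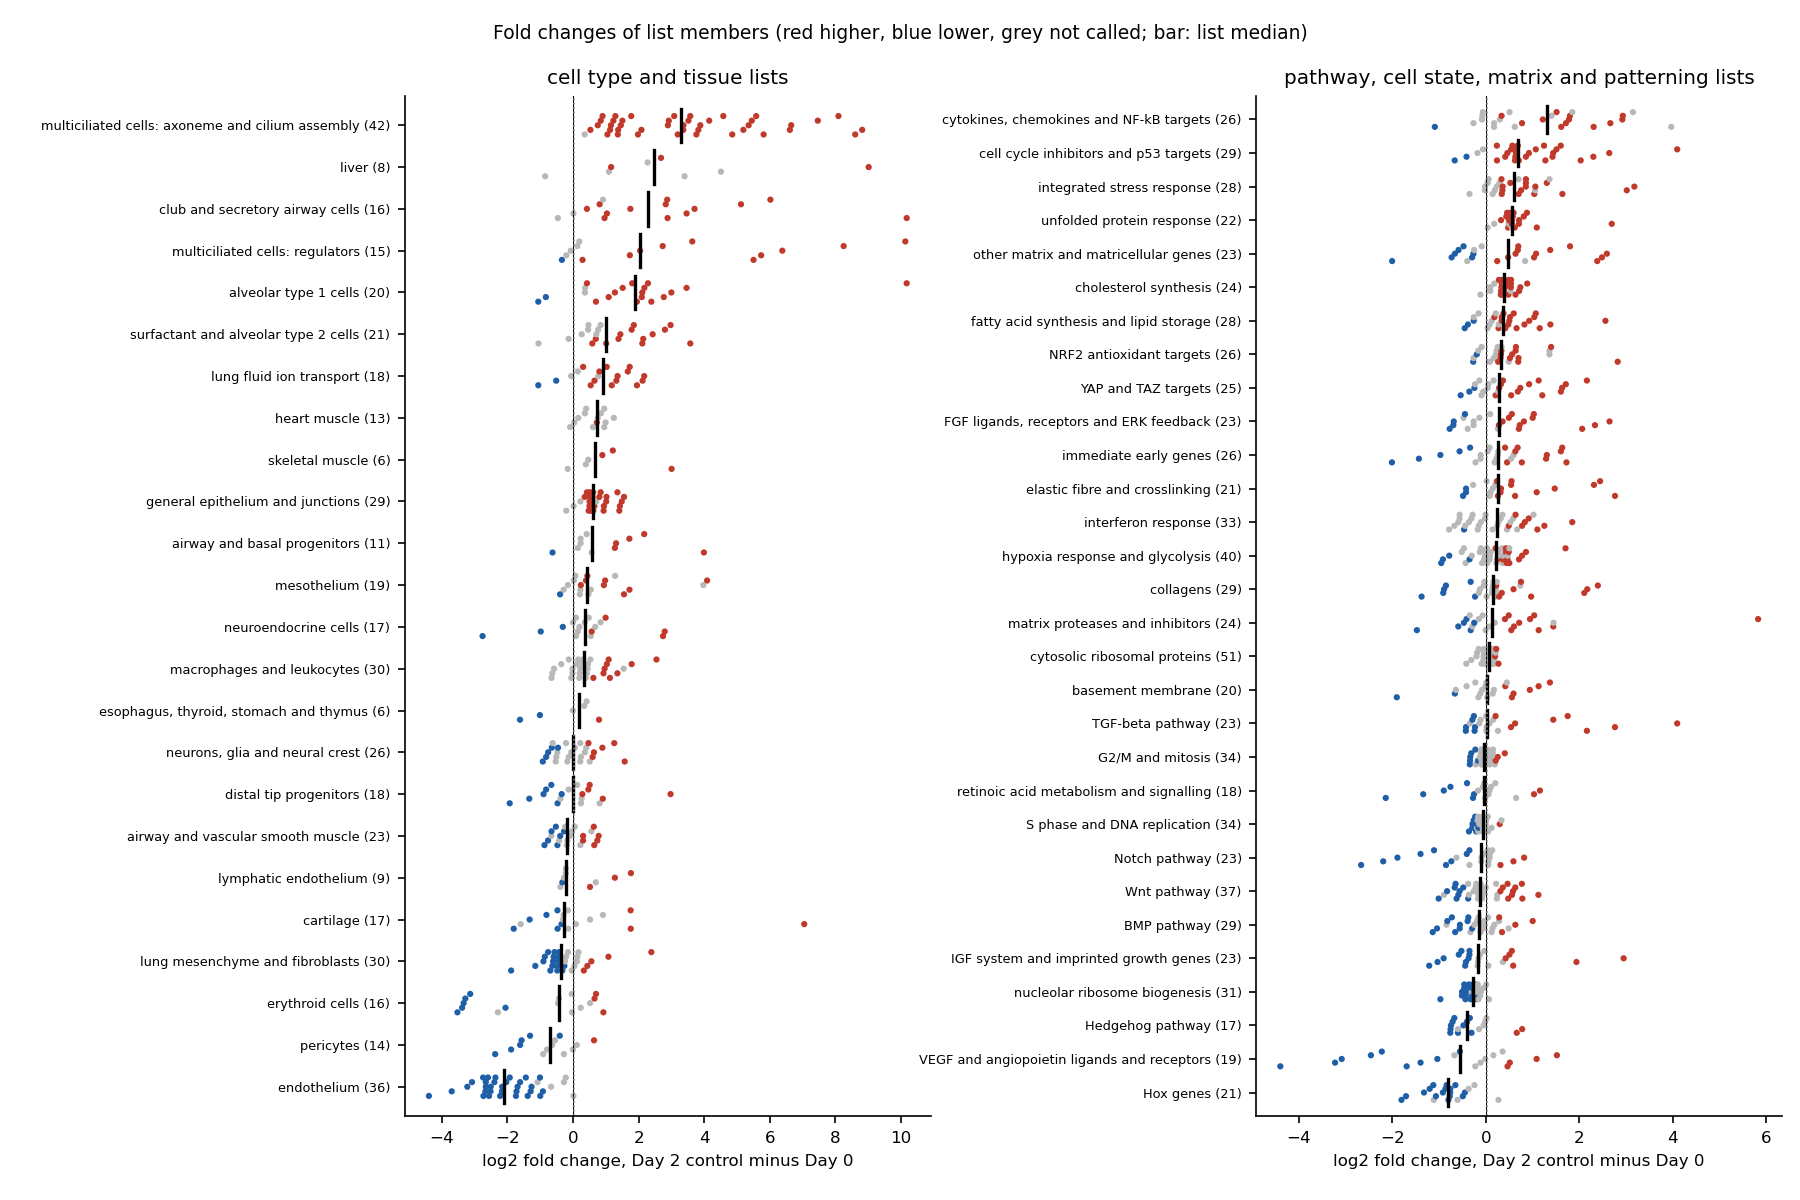
Log2 fold change (Day 2 control minus Day 0, horizontal axis) of every tested member of the 54 lists, with the number tested in brackets, red for called higher, blue for called lower, grey for not called, a bar at each list's median and a dotted line at the median of all genes (0.02). Medians run from -2.10 for endothelium to 3.28 for the axoneme, and the proliferation and ribosomal protein lists gather near 0.

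Compressed lungs of the same day were sampled in 4 further libraries, which share their control group with the comparison above. Between compression and control 0 of 15246 genes (0%) were called by edgeR, with 1839 at an unadjusted p under 0.05, 71 called by DESeq2 and 1958 by limma-voom. Side by side, Cdh5 stood at 14.7, 18.9, 16.7 and 13.8 CPM under compression, within the control range of 8.3 to 21.6 CPM. Hoxa5 stood at 101 to 103 CPM under compression, and Clic5 at 40.6, 70.3, 73.7 and 52.2 CPM. Krt19 stood at 108 to 126 CPM, above the control mean of 99.6 ± 2.88 CPM (SD, n = 4). Foxj1 stood at 61.6, 69.7, 64.2 and 56.5 CPM, above the 4 control values. Values of these genes after compression thus lay on the same side of Day 0 as those of controls.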

How the data were processed

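RNA-seq libraries were grouped and numbered by their titles. The table that the authors deposited holds raw counts for 24421 gene symbols, 4505 of them without a count. STAR, fastp and mm10 are named in the submitters' processing notes. Versions, the annotation, the strand setting and the handling of reads mapping to several places are not given in the sources used, so reads of overlapping genes on opposite strands cannot be told apart: this concerns more than 10% of the exon length of 17 of the 245 named genes, and a same-strand overlap concerns 4. Coordinates are those of GRCm38 by symbol (241) or older symbol (4).

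In R 4.3.3, genes were filtered with filterByExpr of edgeR 4.0.16 (minimum count 10, minimum total 15), scaled by TMM and fitted by robust quasi-likelihood with all 12 libraries and the group as the only term. P-values were adjusted by Benjamini-Hochberg over all 15246 genes. Data were simulated for the comparison of Day 2 control with Day 0 (15147 genes). In them, 77% of 100 genes changed 2-fold and 99% of 98 genes changed 4-fold were recovered, with 12 false calls. Far fewer genes changed in the simulation than the 6131 called in the data, so these rates need not hold for the data. Counting intervals are exact at 95%, and they and floors (3 counts) cover counting error only. Log2 values for scores use a prior count of 2.

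The comparison and the 54 gene lists (1284 symbols, 1173 tested, 90 in several lists) were chosen with earlier results of these data known. Lists are therefore described by counts and medians without a test. Named genes are the 10 largest rises and falls among called genes of at least 10 CPM whose groups do not overlap, the 5 largest gains and losses in CPM, and in each list the defining genes and up to 4 called members with the smallest p. Some genes that this rule names are left out of the text. Other genes named were chosen after their values were seen. Dnai1 and Hba-a1 have no counts under those symbols. Dnai1 was measured as Dnaic1, which rose with overlapping groups (means of 0.409 and 1.17 CPM, log2 FC 1.46). The listed globins Hba-a2, Hbb-bt, Hbb-bs, Hbb-b1, Hbb-b2 and Hbb-bh0 have no counts either. Alternatives used limma 3.58.1 and DESeq2 1.42.0. Deviations of same-numbered libraries correlated at 0.049 to 0.112, where the limit set for pairing was 0.1. Replicates 1 (0.112) and 4 (0.103) passed it and replicates 2 (0.049) and 3 (0.069) did not. The replicate numbers were not taken to pair the samples.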

Additional observations from a re-analysis of the deposited data

Results flagged for a closer look

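Among the named genes, 477 sets of 4 libraries were tested for a single library far from the other 3 (a gap above Dixon's critical value for 4 samples), and 32 (6.71%) passed, where chance alone gives about 1 in 20. Control replicate 4 accounted for 9. It was the highest library for the liver genes Alb (638 CPM), Afp (745), Trf (341) and Rbp4 (35.4), for the leukocyte gene Ptprc (14.4), the muscle gene Tnnt3 (3.89), the neuronal filament gene Prph (17.8) and the kinase gene Nuak2 (19.3 CPM), and the lowest for the peptide gene Calca (0.255 CPM). What these genes share with the liver transcripts of this library was not tested.

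Other control libraries stood apart in single genes. Replicate 1 was high for Gmnc (9.81 CPM), Myh11 (87.9) and Lox (549) and low for Egfl7 (10.7), Mybbp1a (227) and Col4a3 (16.1 CPM). Replicate 2 was low for the radial spoke gene Rsph1 (2.81 CPM) and for Nek2 (57.9), and replicate 3 for Fbln5 (54.9 CPM).

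At Day 0, replicate 4 was high for Emp2 (63.9 CPM), Pecam1 (79.9) and Kcnj8 (9.73) and low for Hbb-bh1 (17.9) and Bambi (53.5 CPM). It held the only Day 0 read of Dynlrb2 (0.0300 CPM) and of Sec14l3 (0.0300 CPM). Replicate 1 was high for Lox (263 CPM), Scg2 (0.257) and Tekt4 (0.0428, 1 read), replicate 2 for Prox1 (11.5) and Dkk3 (37.3), and replicate 3 for Trp73 (0.183) and Snap25 (2.06 CPM).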

How the results depend on the processing

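Between Day 2 control and Day 0 the number of called genes ran from 4700, when only libraries with Y-linked reads were used, to 6804 with limma-voom, against 6131. The share of calls that were higher ran from 52.2% to 59.5%, against 56.1%, and 73.4% to 98.6% of the calls were shared with each alternative. A fit with a replicate block called 6569 genes, including 97.2% of the 6131. Same-numbered libraries were not taken as pairs, and not all of their correlations reached 0.1. Of the Day 0 libraries, 3 of 4 correlated best with their own number. Of 220 called named genes, 211 were called in every alternative that tested them. The call was lost in at least 1 alternative for 9 (Abca3, Alb, Calca, Hsp90ab1, Pcsk1, Rbp4, Rpl17, Rps24 and Tg), and 0 reversed. Some alternatives left genes untested, such as the filter of 1 CPM in 4 libraries, which kept 232 of 239 named genes. Of 19 not called, 4 changed sign somewhere. The log2 fold change of Afp turned to -2.81 with limma-voom and ran from -4.78 (without control replicate 4) to 5.07 when single libraries were left out. The log2 fold change of Cftr was -0.027 with limma-voom and ran from -0.046 to 0.42. The log2 fold change of Cspg4 ran from -0.075 to 0.36 and the log2 fold change of Trp63 from -0.12 to 0.31. Compression against control gave 0 calls, 4 with only the 8 libraries compared, 71 with DESeq2, 1958 with limma-voom and 0 to 53 when single libraries were left out, with 53 without control replicate 4 and 19 without compression replicate 1. The cause of these differences was not tested. Depth limits genes near 0 at Day 0, where a ratio rests on 1 to 3 reads.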
